A study of Rattus norvegicus with 12 samples.

Results

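The genes described here are macrophage and microglia identity genes, which are used to recognise these phagocytes in spinal cord tissue. Of 10 genes in the list, 7 were found by their RGD (Rat Genome Database) identifier in both deposited tables, out of 17423 genes listed. These were Cd68, Itgam, Cd14, Cd86, Cd83, Maf and Lyz2. For the other 3, Csf1r, Trem2 and Tyrobp, none of the naming sources used here gave an identifier, so they were not analysed here. The study's gene table pairs Itgam, Cd14 and Lyz2 with their identifiers. The identifiers of Cd68, Cd86, Cd83 and Maf came with the member list alone, and all 4 rows lie on the chromosome that RefSeq gives for the symbol. RNA-seq was performed on a 1-mm cord segment through the lesion of 12 female rats that received a 200 kdyn contusion at an age of 16 to 18 weeks, and all 4 groups were injured. The groups were Sprague-Dawley (SD, Hsd:SD) and athymic nude (AN, Hsd:RH-rnu/rnu) rats, sampled 1 week (acute phase) or 8 weeks (chronic phase) after the contusion, with 3 rats in each. AN rats are homozygous for the rnu mutation, lack a working thymus and are T cell-deficient, and SD rats have an intact immune system. The AN strain also has a different origin from SD, so effects of T cell deficiency and of strain background cannot be told apart.

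The tables hold 1 FPKM value, a read abundance scaled to gene length and sequencing depth, for each group of 3 rats. The spread between rats is therefore not seen in these values, no error is given for any value below, and no test between strains was run. The authors' own test results were not used. A difference is described by its size, log2FC (log2 of AN FPKM over SD FPKM), and by its place among all genes of the same table. The tables hold no read counts, so the number of reads behind each gene's value is unknown too. Because the whole cord segment was sequenced, fewer cells of a type and less RNA per cell cannot be told apart. The segments carried the transcripts of cord cells in all groups, with Mag (a myelin protein) at an FPKM between 202 and 486 and Snap25 (a synaptic protein) between 6.79 and 213.

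Macrophages that enter the cord from blood and resident microglia share most of their surface molecules and lysosomal machinery, so few single transcripts separate them. After contusion both populations gather at the lesion, take up myelin and cell debris, and remain there for weeks. CD68 is a lysosomal membrane glycoprotein of phagocytes, and CD11b (Itgam) is the alpha chain of complement receptor 3, through which opsonised debris is bound. CD14 is a co-receptor that delivers lipopolysaccharide and other ligands to Toll-like receptor 4. CD86 is a costimulatory ligand for CD28 on T cells, and CD83 is best known from mature dendritic cells. Maf is a transcription factor of macrophages and of several other cell types, and lysozyme is a secreted enzyme that cuts bacterial cell walls.

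Cd68 (RGD:1305970, RN4 chromosome 10, 56481701 to 56483580) was by far the most abundant member. SD rats had an acute FPKM of 1115 and AN rats one of 1757, and the chronic FPKM was 606 and 841. Among all listed genes it held rank 58 (SD) and 34 (AN) in the acute phase and rank 111 and 78 in the chronic phase. It made up between 72.8% and 79.8% of the summed FPKM of the 7 members in the 4 groups. AN rats were higher in both phases, by 1.58-fold at 1 week (log2FC 0.66) and 1.39-fold at 8 weeks (log2FC 0.47). Of all genes, 5.77% exceeded the acute and 8.56% the chronic value.

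Itgam (RGD:2926, chromosome 1, 187334413 to 187385583) had an FPKM of 63.2 in acute SD and 137 in acute AN rats. The chronic values were 43.7 and 58.3. The acute AN group was thus well above the other 3 groups, which lay between 43.7 and 63.2. The AN value was 2.17-fold the SD value in the acute phase (log2FC 1.12, exceeded by 1.40% of genes) and 1.33-fold in the chronic phase (log2FC 0.41, exceeded by 10.4%).

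Cd14 (RGD:620588, chromosome 18, 29374593 to 29376190) had a like acute pattern and nearly equal chronic values. It was listed at 48.1 (SD) and 108 (AN) in the acute phase and at 36.7 and 36.0 in the chronic phase. The acute log2FC of 1.17 was the highest of the members and was exceeded by 1.22% of all genes, while the chronic log2FC of -0.03 lay near the middle, with 56.1% of genes above it.

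In the acute phase the costimulatory molecules differed less between strains than Cd68, Itgam and Cd14. Cd86 (RGD:628714, chromosome 11, 66215233 to 66238882) was listed at 35.4 in acute SD and 50.0 in acute AN rats (log2FC 0.50), and at 27.7 and 24.5 in the chronic phase (log2FC -0.18). The sign of the log2FC of Cd86 was thus opposite in the 2 phases, with 9.89% of genes above the acute and 74.4% above the chronic value. With no error, a reversal cannot be told from no chronic difference. Cd83 (RGD:1309677, chromosome 17, 26705646 to 26725470) stayed between 50.2 and 59.0 in all 4 groups, the narrowest range of any member. With an acute log2FC of 0.14 and a chronic one of -0.02, it had 34.9% and 54.4% of all genes above it.

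Maf (RGD:3034, chromosome 19, 45859510 to 45861454) was listed at 65.9 in acute SD and 90.4 in acute AN rats. In the chronic phase it was listed at 54.0 and 67.3. AN rats were 1.37-fold higher in the acute (log2FC 0.46) and 1.24-fold higher in the chronic phase (log2FC 0.32), and 11.4% and 14.5% of genes exceeded these values.

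The member listed as Lyz2 (RGD:1593616, chromosome 7, 56587876 to 56595345) went the opposite way and by far more. SD rats had an acute FPKM of 20.5 and AN rats one of 1.12, and its chronic FPKM was 13.2 and 0.546. Both SD groups were thus far above both AN groups. SD rats were 18.3-fold higher in the acute phase (log2FC -4.19) and 24.2-fold higher in the chronic phase (log2FC -4.60). The AN values are low enough for a pseudocount to matter. With 1 added to each FPKM the log2FC was -3.34 (acute) and -3.20 (chronic), so which phase had the larger difference depended on it. At 8 weeks the AN value was below an FPKM of 1, and Lyz2 passed the minimum for the mean through the SD value.

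**Figure D1:**
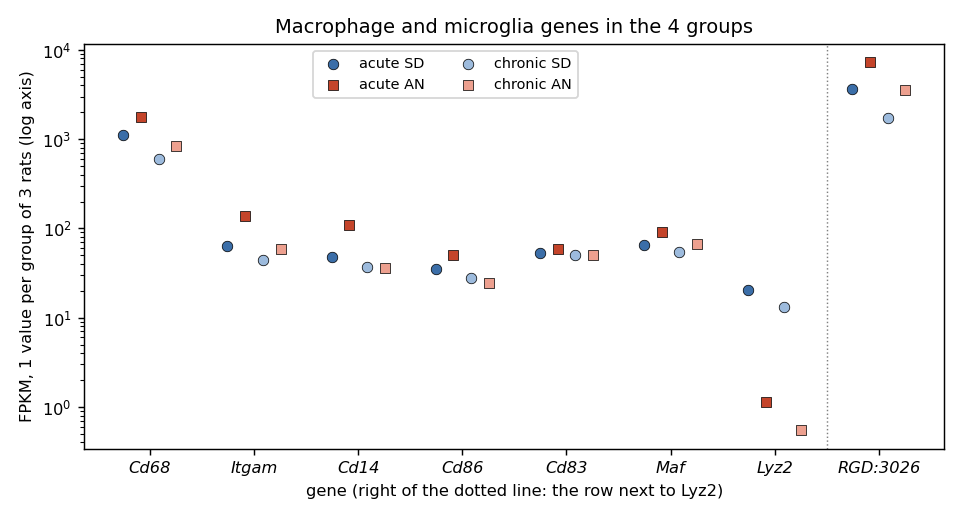
FPKM (log axis) of the 7 members, and right of the dotted line of RGD:3026, in SD and AN rats of both phases. Each point is the authors' single value for a group of 3 rats, so there are no error bars. Cd68 lies above the other members in every group, the acute AN square is the highest value of 6 members, and Lyz2 alone is far lower in both AN groups.

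The name of this lysozyme row needs care, because rats carry more than 1 lysozyme gene at this place. The study's gene table gives RGD:1593616 the symbol Lyz2. In the RefSeq gene table of the GRCr8 assembly, the genes that follow Yeats4 (RGD:1305741) and RGD1306474, both matched by identifier, are Lyc2, with the older symbol Lyz2, and then a gene now called Lyz2, with the older symbols Lyz and Lyz1. In the deposited tables the rows after RGD:1306474 are RGD:1593616 and then RGD:3026 (chromosome 7, 56607708 to 56613004), which begins after a gap of 12362 bases with no other listed gene between them. The neighbouring genes thus place RGD:1593616 at Lyc2 and RGD:3026 at the present Lyz2. No source used here pairs RGD:3026 with a symbol, and it is called by its identifier below.

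The 2 lysozyme genes are shown by the bases before their transcription start, where they share a run. These bases lie outside the transcript, and the transcripts of the 2 genes were not compared. Whether reads could be divided between the 2 rows was therefore not tested. The RefSeq sequences (GRCr8) of 160 bases before the transcription start of Lyc2 and Lyz2 are on opposite strands of chromosome 7. Capitals mark the 39 bases just before the start that are identical in both, and only these 2 of 21851 protein-coding promoters in the table hold this run at that place.
Lyc2, chr7:54772849-54773008, plus strand: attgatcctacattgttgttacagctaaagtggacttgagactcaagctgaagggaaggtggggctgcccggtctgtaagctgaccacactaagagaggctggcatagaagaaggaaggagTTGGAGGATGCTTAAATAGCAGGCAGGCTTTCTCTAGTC
Lyz2, chr7:54798012-54798171, minus strand: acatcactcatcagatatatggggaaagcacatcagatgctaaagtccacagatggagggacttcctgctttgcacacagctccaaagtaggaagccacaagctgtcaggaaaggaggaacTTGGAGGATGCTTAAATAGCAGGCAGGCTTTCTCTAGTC

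RGD:3026 was among the most abundant genes of the cord and did not share the pattern of its neighbour. Its FPKM was 3681 in acute SD and 7235 in acute AN rats, at rank 10 and 4 of all genes, and 1710 and 3555 in the chronic phase, at rank 30 and 12. AN rats were 1.97-fold higher in the acute (log2FC 0.97) and 2.08-fold higher in the chronic phase (log2FC 1.06). Its level was 179 times that of RGD:1593616 in acute SD rats and 129 times in chronic SD rats, against 6451 and 6508 times in acute and chronic AN rats. RGD:1593616 therefore accounted for 0.554% of the FPKM of both lysozyme rows together in acute SD rats and 0.0155% in acute AN rats. The summed FPKM of both rows was higher in AN rats, with log2FC of 0.97 and 1.04. How the authors' mapping assigned reads to these 2 rows, and whether strain differences in sequence altered it, was not tested.

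In the acute phase 6 of the 7 members were higher in AN rats and 1 was lower, where 50.6% of the 11068 genes that passed the minimum (mean FPKM of at least 1 over both strains, neither listed at 0) were higher. The median log2FC was 0.50 over the members and 0.01 over all genes. At least 1.5-fold higher values in AN rats were found for 3 members, Cd68, Itgam and Cd14, against 7.37% of all genes, and at least 1.5-fold lower values for 1 member, Lyz2, against 16.7% of all genes. These counts cover 7 of the 10 genes in the list. The other 3 are absent from the part of the study's gene table held here, which lists only genes called different between strains in the acute phase, so their loss was tied to that call and the counts do not describe the whole list. With RGD:3026 in place of RGD:1593616, 4 members were higher and 0 lower by at least 1.5-fold, and the median was 0.66. Scaling each group to its summed FPKM lowered all acute log2FC by 0.10 and left 2 members at least 1.5-fold higher, with Cd68 at 0.56, and the same 1 lower, against 5.32% and 19.2% of all genes.

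In the chronic phase 3 members were higher and 4 were lower in AN rats, where 51.2% of all genes were higher. The median log2FC of the members was -0.02, close to the 0.01 of 11198 genes, and it was 0.15 with Lyz2 left out. None of the members was at least 1.5-fold higher in AN rats, against 6.01% of all genes, and 1 member, Lyz2, was at least 1.5-fold lower, against 9.71% of all genes. That row passed the minimum through its SD value. With RGD:3026 in its place, 1 member was higher and 0 were lower by at least 1.5-fold, and the median was 0.32. The 6 members other than Lyz2 lay between log2FC -0.18 and 0.47.

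**Figure D2:**
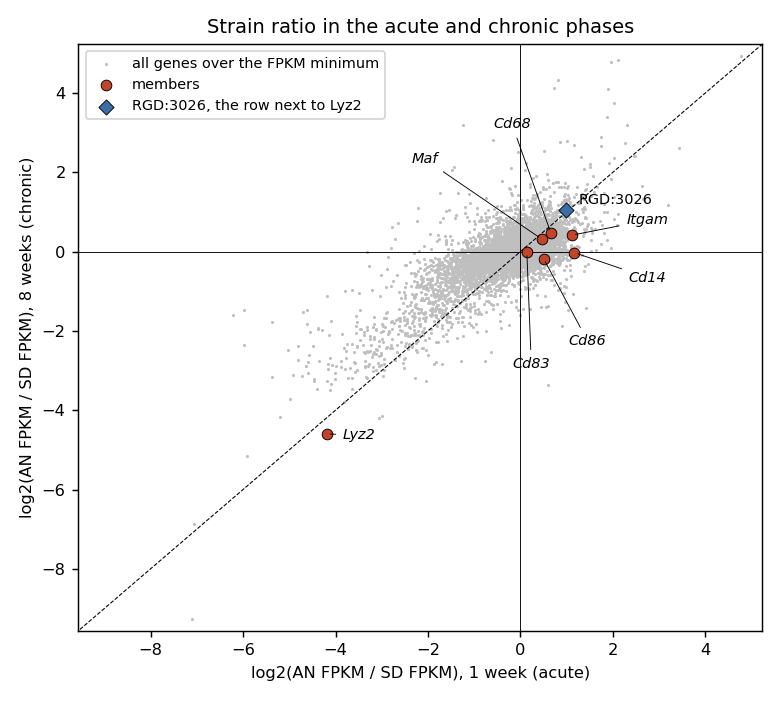
log2FC (AN FPKM over SD FPKM) in the acute (horizontal) and chronic phase (vertical) for all genes that passed the FPKM minimum in both phases (grey), the 7 members (red circles) and RGD:3026 (blue diamond), with y = x dashed. Itgam, Cd14 and Cd86 lie to the right of the dashed line, RGD:3026 lies close to it, and Lyz2 lies at the far lower left in both phases.

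The log2FC of the 6 members other than Lyz2 was higher at 1 week than at 8 weeks with or without a pseudocount. Acute minus chronic log2FC was positive for all 7 members, where 45.3% of 10858 genes had a positive value. It was 1.20 for Cd14, 0.70 for Itgam and 0.68 for Cd86, and 0.58%, 2.85% and 2.99% of all genes had larger values. Cd68, Cd83 and Maf had values of 0.18, 0.16 and 0.14, and between 23.2% and 27.9% of genes were above them. Lyz2 had 0.40, from a log2FC that was negative in both phases, and with a pseudocount of 1 its difference was -0.14, which left 6 of 7 positive. None of these differences has an error, since each rests on 4 group values.

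The members did not keep a fixed ratio to each other. Relative to the log2FC of Cd68, Cd14 was 0.51 higher in the acute phase and 0.50 lower in the chronic phase. Itgam was 0.46 higher than Cd68 in the acute phase and 0.06 lower in the chronic phase, so it was close to Cd68 only at 8 weeks. Cd83 was lower than Cd68 by a similar amount in both phases, with differences of -0.52 and -0.49.

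FPKM is scaled to gene length, so the levels of genes can be ordered within a group. After Cd68, the acute SD order was Maf, Itgam, Cd83, Cd14, Cd86 and Lyz2, with Maf and Itgam close together. In acute AN rats Itgam and Cd14 came before Maf, Cd83, Cd86 and Lyz2. In chronic AN rats the order was Maf, Itgam, Cd83, Cd14, Cd86 and Lyz2, and in chronic SD rats Cd83 stood before Itgam. With no spread between rats, none of the close neighbours in these orders can be said to differ.

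All 7 members had lower FPKM at 8 weeks than at 1 week in both strains. The share of all genes that were lower was 49.5% (SD) and 47.4% (AN). The acute and chronic tables were normalized separately, so these levels are set side by side only as a description. The median log2 ratio of 8 weeks over 1 week was -0.39 in SD and -1.04 in AN rats over the members, and 0.00 and 0.03 over all genes.

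At 8 weeks Cd68 stood at 54.4% of its 1 week level in SD and 47.9% in AN rats. Cd14 stood at 76.4% in SD rats but at 33.3% in AN rats, the widest gap between strains. Itgam was at 69.2% and 42.5%, and Cd86 at 78.4% and 49.0%. Cd83 was at 94.9% and 85.1% and Maf at 82.0% and 74.4%, so these 2 genes were nearest to their early level in both strains. Lyz2 was at 64.4% in SD and 48.7% in AN rats.

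**Figure D3:**
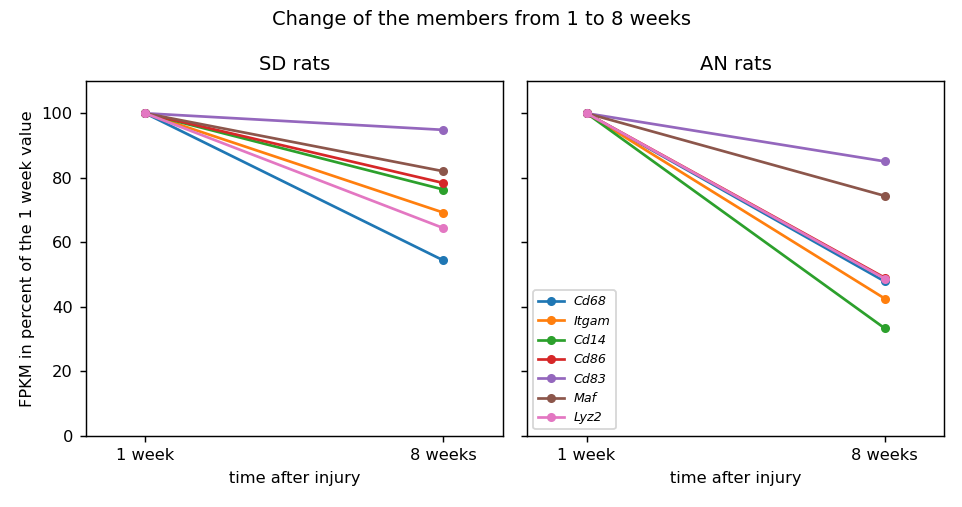
FPKM at 8 weeks in percent of the 1 week value for each of the 7 members, in SD rats (left) and AN rats (right), from the authors' single value per group of 3 rats. All lines go down, those of Cd14, Itgam and Cd86 further in AN rats (33.3% to 49.0% left) than in SD rats (69.2% to 78.4% left).

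The promoters of Itgam and Cd14, the members with the largest acute AN over SD ratios, are shown with the core motif of PU.1, the transcription factor required for the macrophage lineage. The RefSeq sequences (GRCr8) run over the 160 bases before the transcription start, and capitals mark GAGGAA or, for the other strand, TTCCTC.
Itgam, chr1:192089432-192089591, plus strand: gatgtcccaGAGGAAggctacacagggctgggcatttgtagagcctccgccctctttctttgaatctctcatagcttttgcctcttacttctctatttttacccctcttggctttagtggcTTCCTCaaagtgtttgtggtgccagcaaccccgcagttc
Cd14, chr18:28611159-28611318, minus strand: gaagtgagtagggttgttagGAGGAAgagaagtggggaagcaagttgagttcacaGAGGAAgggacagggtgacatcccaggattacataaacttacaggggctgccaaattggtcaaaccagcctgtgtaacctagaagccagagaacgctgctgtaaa

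The motif began 151 and 39 bases before the start in Itgam and 140 and 105 bases before it in Cd14. In windows from 250 bases before to 50 after the start, 4 of the 7 members held it on either strand, which were Cd68, Itgam, Cd14 and Cd86. Cd83, Maf and Lyc2 did not, while the present Lyz2 held it 46 bases before the start. The share of all 33469 promoters in the table with the motif was 27.6%. A match of 6 letters is a description of the window and says nothing of binding.

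Other myeloid genes were looked up from lists of the partners, regulators and further markers of these cells. A symbol could be given to 4714 of the listed identifiers, 1989 of them through the study's supplementary gene table. The part of that table held here lists only genes that the authors called different between strains in the acute phase. Genes named through it were thus selected for a strain difference at 1 week, and those named through the RefSeq gene table alone are genes absent from it. Their acute ratios are given as values only. The chronic values come from other rats but from the same strain comparison, so they are not free of that selection, and no count below describes a whole list.

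Among genes named without the supplementary table, the microglial membrane protein Tmem119 was lower in AN rats, by log2FC -0.12 in the acute (37.4 in SD and 34.4 in AN rats) and -0.36 in the chronic phase (31.6 and 24.6). Itgax, which encodes the alpha chain of a sister integrin of CD11b, was named after its values were seen. It was listed at 16.6 and 15.8 in acute SD and AN rats and at 4.65 and 11.0 in the chronic phase. Clec7a, the beta-glucan receptor of phagocytes, was higher in AN rats by log2FC 0.57 (118 and 175) and 0.53 (89.1 and 128). Mef2c, a transcription factor of microglia and neurons, was near 0 in both phases, with 0.11 and 0.02. Siglech, another microglial receptor, was below an FPKM of 1 in all groups and is not read further. Together with Cx3cr1, 3 of 11 microglia markers were matched.

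For myeloid genes named through the supplementary table the chronic values are given here. They come from other rats, but the genes were selected for an acute difference in the same strain comparison. Of 7 rows for 6 of 16 infiltrating monocyte and macrophage markers, 2 were at least 1.5-fold higher in chronic AN rats, none was lower by as much and the median log2FC was 0.45. Over all genes, selected or not, these shares were 6.01% and 9.71%, and the median was 0.01. Since all 7 rows were at least 1.5-fold higher in acute AN rats, no excess is read from this. The 2 higher in the chronic phase were the scavenger receptor Cd163 (4.52 and 16.2 in SD and AN, log2FC 1.84) and the mannose receptor Mrc1 (17.5 and 41.5, log2FC 1.24). They also form the whole matched part of the M2-associated list. The Fc receptor Fcgr1a was equal in chronic SD and AN rats (30.6 in both). Fcgr2b was carried by 2 identifiers, with chronic log2FC of 0.45 and -0.04, and reads may be shared between them. The chemokine receptor Cx3cr1 of microglia and monocytes was listed at 69.4 and 58.8 (log2FC -0.24). Of the 12 M1-associated genes 1 was matched, Il6, below an FPKM of 1 in both chronic groups.

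Itgb2 encodes CD18, the beta chain that pairs with CD11b. At 8 weeks it was listed at 68.5 (SD) and 104 (AN), a log2FC of 0.60. Its chronic level was 1.57 times that of Itgam in SD and 1.79 times in AN rats. Of 5 matched genes among 22 partners and signalling genes, 2 were at least 1.5-fold higher in chronic AN rats, Itgax and Itgb2, against 6.01% of all genes, and 3 of the 5 were named through the supplementary table. The phosphatase gene Ptpn6 had a chronic log2FC of 0.07 and the cytokine receptor chain Csf2rb of -0.27. Of 12 myeloid transcription factors 4 were matched, 3 of them through the supplementary table. In chronic AN rats 1 was at least 1.5-fold higher, against 6.01% of all genes. This was Runx1, with a log2FC of 0.76, while Cebpb had 0.11. Of the 20 phagocyte lysosome and lipid-handling genes 2 were matched, both through the supplementary table. The fatty acid carrier Fabp4 had a chronic log2FC of 1.62 and the lipase Lpl had 0.79.

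**Figure D4:**
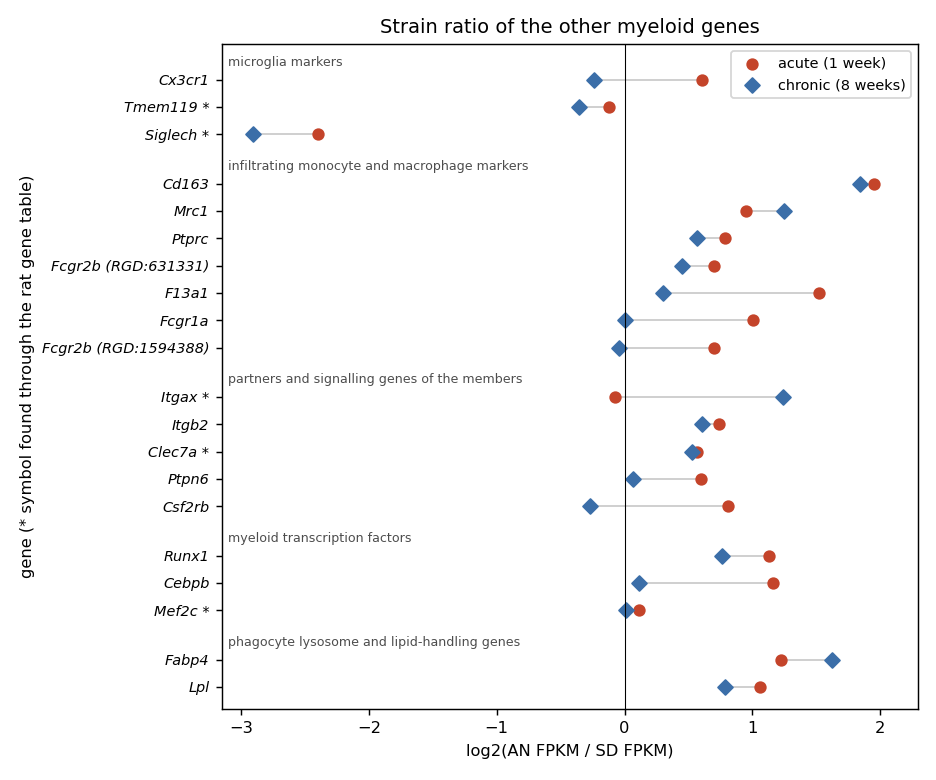
log2FC (AN FPKM over SD FPKM) of matched genes of 5 myeloid lists in the acute (red circles) and chronic phase (blue diamonds), joined by a line for each gene. Genes without an asterisk were selected for an acute difference and those with one were not among the genes so selected, and the chronic values spread from -2.91 for Siglech, which was below an FPKM of 1 throughout, over -0.36 for Tmem119 to 1.84 for Cd163.

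Markers of other cell types moved with the same strain comparison, and their part in the members' values was not tested. All markers matched were named through the supplementary table, so their acute values were selected for a strain difference. Their chronic values are not free of that selection, also where a share of all genes stands beside them. The 5 neuron markers had a summed FPKM of 739 in acute SD and 124 in acute AN rats, and of 700.0 and 215 in the chronic phase, where all 5 were at least 1.5-fold lower, against 9.71% of all genes. The 4 oligodendrocyte markers summed to 1771 and 821 in the acute phase and to 1619 and 1436 in the chronic phase. The 2 astrocyte markers matched, S100b and Slc1a2, summed to 2233 and 654 in the acute phase and to 4552 and 3235 in the chronic phase. Most of each sum was S100b, with 2173 and 635 in the acute and 4461 and 3159 in the chronic phase. Gfap was not matched. Of the T cell list, Cd3g was listed at 2.74 and 0.531 in acute SD and AN rats and at 2.58 and 1.40 in the chronic phase. Cd4, which rat macrophages also carry, was listed at 102 and 44.4, and at 94.0 and 79.0. Cd8a was listed at 76.0 and 199, and at 29.5 and 22.8. The neutrophil receptor gene Csf3r had 20.3 and 30.8, and 14.3 and 12.9. No gene of the B cell, NK cell, fibroblast or endothelial lists was matched.

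The genes most like a member were sought by the distance between pairs of log2FC (acute and chronic) among 3380 (for Itgam and Cd14) or 3381 (for Cd68) other symbols, where each group reached the FPKM minimum of 1. Lyz2 did not reach it in chronic AN rats and was left out. For Cd68 they were TAGLN2, Mctp2 and NAB2, within a distance of 0.02. For Itgam they were CD93, GABRR2 and LOC681325, at 0.04 to 0.06. For Cd14 they were CEP55, Il1a and MKI67, at 0.03 to 0.11. This likeness rests on 2 ratios for each gene and the pool is rich in genes with an acute strain difference.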

How the data were processed

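RNA-seq of 12 rats in 4 groups of 3 was summarised by the authors in 2 tables, 1 for each phase. Per the labels and the study's methods, the authors removed adapters with CutAdapt, mapped reads to RN4 with TopHat (1.5.0), assembled transcripts with Cufflinks (0.0.6) under quartile normalization, merged them per time point and compared strains with CuffDiff. The deposited FPKM values are 1 per gene and group, with no value per rat. The remaining columns of the tables hold the authors' own fold change, test statistic, P, Q and call for each gene, and were not used. Reads were sequenced per rat, but the tables hold no read count per gene, so no interval was computed.

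Here, log2FC was taken with no pseudocount, for genes with a mean FPKM of at least 1 over both strains and neither strain listed at 0. Of the genes with that mean, 6 acute and 3 chronic ones were left out because 1 strain was listed at 0. No test was made. Samples were grouped by the strain and time point in the labels. The members and lists were chosen with earlier results of these data known. In each list, the genes named are among the up to 4 with the highest mean FPKM, with exceptions for Itgax and Cd163. Itgax was chosen after its values were seen. Cd163 met the rule in the M2-associated list but not in the infiltrating monocyte and macrophage list, where it is also named. Ptprc, F13a1 and Syt1 fell outside the naming rule, the first 2 being plotted and Syt1 entering the neuron sum, and 1 further matched gene is not reported here. For Itgam, Cd14 and Cd68 the 3 genes nearest in pattern are named. The identifiers of 4 members came with the member list, and no table used here pairs them with a symbol. Other symbols came from RGD identifiers in the study's supplementary table or in the RefSeq gene table of GRCr8, never from gene order, and the remark on the lysozyme neighbours is a description. Coordinates of genes are RN4 as deposited, counted from 1, and those of printed sequences are GRCr8. Alternatives were a 2-fold limit, a pseudocount of 1, centring on the median gene, scaling to summed FPKM, no minimum and a minimum of 5. Separate ones were the members without Lyz2 and, chosen after seeing the data, RGD:3026 in place of Lyz2. The functions were tested on simulated data. Python 3.11.15, pandas 2.3.3 and NumPy 2.4.6 were used.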

Additional observations from a re-analysis of the deposited data

How the results depend on the processing

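The counts of members past the fold limit were recomputed under each alternative, and the medians of the members under each but the 2-fold limit. Without Lyz2 the chronic median moved from -0.02 to 0.15 and the count of lower members from 1 to 0 in both phases. With RGD:3026 in place of the Lyz2 row the lower count was again 0 in both phases, the chronic higher count was 1 in place of 0, and the medians were 0.66 (acute) and 0.32 (chronic). The replacement, and the counts without Lyz2, were chosen after seeing the data. The other 39 recomputed counts and medians stayed within 1.5 times of the reported count or within 0.1 of the reported log2 median. The acute count of higher members was 2 in place of 3 at a 2-fold limit, with 1.89% of all genes past it, and also after scaling to summed FPKM, with 5.32% past 1.5-fold. A pseudocount of 1 took the log2FC of Lyz2 to -3.34 (acute) and -3.20 (chronic), since its AN values are near that size, and turned its acute minus chronic difference from 0.40 to -0.14. That last comparison was also chosen after seeing the data, and 6 in place of 7 members then had a positive difference. Leaving out a rat was not possible, because the tables hold 1 value per group. No paired analysis was possible because the tables hold no value per rat. With no spread between rats and no depth per gene, no strain difference of any size can be tested against 0 with the values used here.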
